A study of Mus musculus with 18 samples.

Results

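Of the 55291 gene symbols in the files, 8 genes of the complement system were followed through mouse hippocampal RNA after kainic acid: the 3 chains of C1q (C1qa, C1qb and C1qc), the components C4b and C3, the anaphylatoxin receptors C3ar1 and C5ar1, and the regulator Cd59a. They were chosen by their symbols, with earlier results of these data known, and every library of the series was used. The series holds 18 RNA-seq libraries made from 9 homogenates, 3 in each of 3 groups, and each homogenate was a pool of 3 to 4 right hippocampi.

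All mice were wild-type C57BL/6J males, and all received AAV_DJ-GfaABC1D-EGFP-Rpl10a in the right CA3 at 6 weeks of age, so the controls carry the transgene too. This virus makes a GFP-tagged ribosomal protein from a short GFAP promoter that is mainly active in astrocytes, so the tag marks only cells that were infected and in which the promoter was on. The KA group received 50 nL of 20 mM kainic acid (KA), a glutamate receptor agonist that causes seizures, in the right dentate gyrus 2 weeks after the virus, and RNA was taken 14 days after KA. The AAV control group received virus alone, and its RNA was taken 2 weeks after it. The KA and AAV control groups thus also differ in time after the virus and in a further injection. In that comparison these cannot be told apart from KA. The PBS group received saline after the virus, with a time of RNA collection that is not given in the sources used here. From each homogenate one library was made from RNA pulled down with an antibody to GFP (immunoprecipitate, IP) and one from total RNA (input).

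Complement is a cascade of blood and tissue proteins that marks targets for removal. C1q, assembled from its A, B and C chains, recognises the target and starts the classical pathway, C4 is cleaved next, and C3 is the step on which the pathways meet; fragments of C3 and C5 signal through C3ar1 and C5ar1, while CD59 blocks the membrane attack complex at the end. In the brain C1q is made mainly by microglia, C4 and C3 are known products of reactive astrocytes, and complement is known for tagging synapses that microglia remove. The comparisons below ask how each gene changed after KA in the tagged-ribosome RNA and in total RNA. They also ask how its level in the IP compared with its level in the input.

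The 3 C1q genes lie side by side on the minus strand of chromosome 4 (GRCm38): C1qb at chr4:136880129-136886187, C1qc at chr4:136889804-136893065 and C1qa at chr4:136895917-136898803. C4b is at chr17:34728380-34743882, C3 at chr17:57203970-57228136, C3ar1 at chr6:122847138-122856161 and C5ar1 at chr7:16246743-16259540, each on the minus strand, and Cd59a is at chr2:104095801-104115354 on the plus strand. Of 5330 distinct stretches of 50 bases in the exons of C4b, 1875 (35.2%) also occur in its near copy C4a, and 70 of 1757 (3.98%) of those of Cd59a occur in Cd59b, so reads in these stretches cannot be assigned to 1 gene from their sequence. The other 6 genes shared no such stretch with another gene.

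The 250 bases upstream of the start were taken from RefSeq (GRCm38.p6) for the 6 genes that it held, and C1qa and C4b are not shown. The pair below is printed because, among these 6, C3 had the highest and C1qb the lowest ratio of IP to input level after KA. Capitals mark the only match in each to 4 sets of letters searched on both strands, in which N is any base, and both genes are on the minus strand, at chr17:57228137-57228386 for C3 and chr4:136886201-136886450 for C1qb.
C3: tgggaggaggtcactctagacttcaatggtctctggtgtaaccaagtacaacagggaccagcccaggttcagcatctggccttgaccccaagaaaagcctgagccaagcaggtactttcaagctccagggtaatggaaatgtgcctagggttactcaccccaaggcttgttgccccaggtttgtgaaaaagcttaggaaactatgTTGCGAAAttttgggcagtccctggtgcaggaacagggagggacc
C1qb: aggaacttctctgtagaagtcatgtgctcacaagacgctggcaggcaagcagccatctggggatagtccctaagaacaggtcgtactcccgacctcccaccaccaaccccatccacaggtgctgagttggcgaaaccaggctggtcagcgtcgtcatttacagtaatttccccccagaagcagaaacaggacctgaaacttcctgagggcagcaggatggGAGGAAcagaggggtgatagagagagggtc

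The letters TTGCNNAA, a core of sites of the C/EBP factors that act in inflammation, occurred 45 bases before the C3 start and in none of the other 5 sequences. They occurred in 9.56% of 32851 mouse promoters of the same length. GAGGAA, the core of the PU box bound by the myeloid factor PU.1, occurred once upstream of each of C1qb (30 bases), C1qc (193 bases) and Cd59a (62 bases), and in 23.3% of promoters. The NF-kB letters, GGGNN followed by TTTCC, were found only before C3ar1, at 14 bases (1.41% of promoters), and the STAT letters TTCNNNGAA in none of the 6 (7.02%). No match overlapped another, and a match of letters is not a measured binding site.

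The libraries held 7991681 to 16032180 counts assigned to genes. The astrocyte label of the IP was checked against 12 astrocyte markers, whose summed FPKM (a read level scaled to the length of the gene and the size of the library) was 3244 to 10963 in the 9 IP libraries and 551 to 1120 in the 9 input libraries. Within the IP it was lower after KA (3244 to 3955) than in the AAV control (6294 to 9192) or PBS group (6367 to 10963). The markers did not all move this way. Mean IP FPKM after KA, in the AAV control and after PBS was 1431, 4162 and 5315 for Aldoc, the largest part of the sum. It was 480, 1359 and 1486 for Slc1a2. S100b overlapped between the groups (799, 979 and 907), and Aqp4 was higher after KA (352, 183 and 186). AAV control #3 stood apart from #1 and #2: its summed oligodendrocyte markers in the IP were 1135 against 271 and 358, its C3 in the IP was 2.28 FPKM against 0.231 and 0.468, and its C1qb in the input was 126 FPKM against 55.0 and 37.8. KA and AAV control #1 and #2 were sequenced in run 1, #3 of both in run 2 and the PBS group in run 3, so PBS and run cannot be told apart.

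In total RNA the 3 C1q chains rose 9.46- to 13.6-fold after KA against either control group, and they were the most abundant of the 8 genes by FPKM in each group. C1qa was at 955, 858 and 498 FPKM in KA #1, #2 and #3, at 52.5, 43.3 and 70.3 in the AAV control and at 52.3, 58.1 and 56.4 in the PBS group. C1qb was at 1063, 886 and 724 FPKM after KA, 55.0, 37.8 and 126 in the AAV control and 59.5, 71.3 and 69.9 after PBS. C1qc was the lowest of the chains in each library, at 353, 291 and 267 FPKM after KA, 21.0, 17.8 and 50.6 in the AAV control and 28.9, 30.3 and 36.3 after PBS. The KA libraries lay far above both control groups for each chain, with no overlap.

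The test was edgeR's quasi-likelihood test over all genes above 1 FPKM in each library compared, and a gene was called when its Benjamini-Hochberg adjusted p was under 0.05 and its log2 fold change was at least 1 in size. Against the AAV control the input log2 fold changes were 3.77 (SE 0.31, adjusted p = 0.000977) for C1qa, 3.56 (SE 0.48, adjusted p = 0.00618) for C1qb and 3.30 (SE 0.44, adjusted p = 0.00607) for C1qc. Against PBS they were 3.76 (SE 0.20, adjusted p = 4.17e-07), 3.72 (SE 0.15, adjusted p = 9.87e-08) and 3.24 (SE 0.13, adjusted p = 9.87e-08). Without AAV control #3 the first comparison gave 4.05, 4.32 and 4.02, and in run 1 alone 4.25, 4.4 and 4.06. These libraries hold whole hippocampus, in which more cells of a type and more RNA per cell cannot be told apart. Both comparisons use the same KA libraries.

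Of the 8 genes, 5 passed the FPKM limit in the input, and 4 of these 5 were called higher in KA than in the AAV control and 5 of 5 than in PBS. Of all genes tested, 2.52% and 4.26% were called higher in these comparisons. With a lower limit of 10 counts summed over the libraries compared, which C3, C3ar1 and C5ar1 also passed, 7 of 8 and 8 of 8 were called higher, against 3.58% and 6.85% of all genes. The one gene not called was Cd59a against the AAV control.

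**Figure D1:**
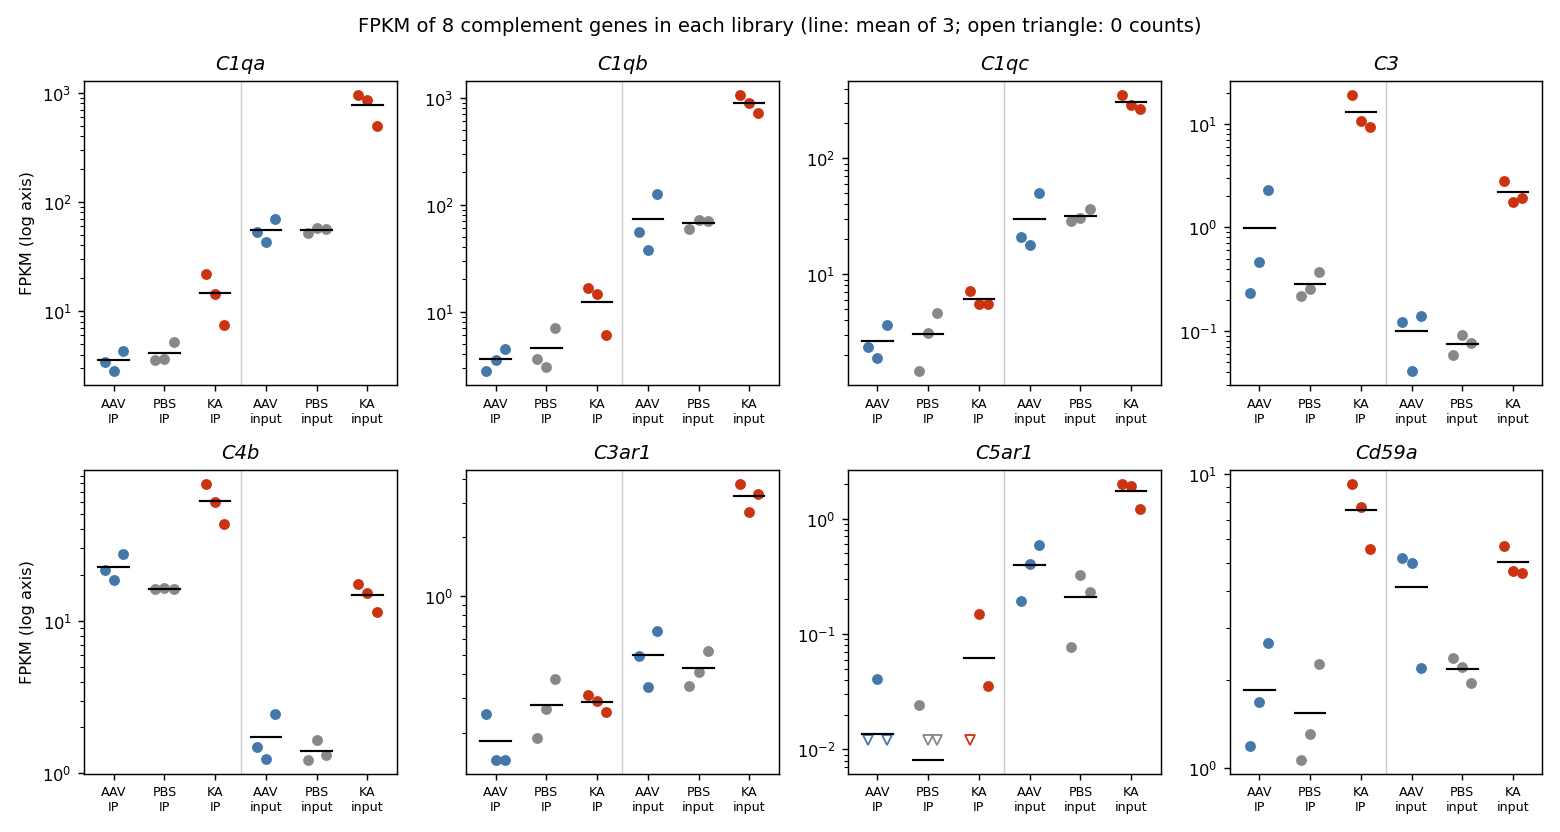
FPKM (log axis) of the 8 complement genes in each IP and input library, with a point for each sample, a line at the mean, colours for the AAV control, PBS and KA groups, and open triangles for values of 0. The C1q chains reached 267 to 1063 FPKM in the KA input libraries but 5.48 to 21.9 in the KA IP libraries, while C4b and C3 were higher in the IP than in the input of each homogenate.

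The same chains were also higher after KA in the IP, from a far lower level. C1qa was at 21.9, 14.4 and 7.46 FPKM after KA, at 3.42, 2.82 and 4.35 in the AAV control and at 3.60, 3.62 and 5.22 after PBS. C1qb was at 16.7, 14.5 and 6.04 FPKM after KA, at 2.78, 3.56 and 4.52 in the AAV control and at 3.61, 3.06 and 7.0 after PBS. C1qc was at 7.16, 5.52 and 5.48 FPKM after KA, at 2.35, 1.90 and 3.64 in the AAV control and at 1.45, 3.08 and 4.59 after PBS. KA #3 was the lowest KA library for each chain, and for C1qb it lay below PBS #3; no other KA library overlapped a control library.

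The 3 chains rose by log2 2.05 (SE 0.38, adjusted p = 0.0102) for C1qa, 1.77 (SE 0.38, adjusted p = 0.0157) for C1qb and 1.22 (SE 0.31, adjusted p = 0.0292) for C1qc against the AAV control IP. Against PBS the rises were 1.81 (SE 0.33, adjusted p = 0.00219), 1.46 (SE 0.35, adjusted p = 0.00935) and 1.03 (SE 0.34, adjusted p = 0.0350). In both IP comparisons 5 of the 5 genes above the FPKM limit were called higher, against 6.39% of all genes for the AAV control and 8.08% for PBS, and with the count limit 6 of 7, against 6.45% and 9.24%. C1qb lost its call against the AAV control without KA #1, KA #2, AAV control #1 or AAV control #2 (log2 1.54 to 1.72), and C1qc lost it without any one library except AAV control #3 (log2 1.0 to 1.31). Against PBS, C1qc lost its call without KA #1, KA #3, PBS #1 or PBS #2, with a value of 0.66 without PBS #1.

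Microglial markers moved with the C1q chains. By the count limit 16 of 16 such markers were called higher after KA in the input against either control group, and in the IP 8 of 16 were against the AAV control and 7 of 16 against PBS, where 6.45% and 9.24% of all genes were. Against 6.39% and 8.08% of all genes by the FPKM limit, 2 of 6 and 4 of 8 microglial markers were called higher in the IP. Their summed FPKM in the input was 1292 to 1620 after KA, 116 to 269 in the AAV control and 157 to 187 after PBS, and in the IP it was 51.8 to 92.4, 20.2 to 37.5 and 24.7 to 51.4. By the count limit 3.58% and 6.85% of all genes were called higher in the input against the AAV control and PBS. Of 8 macrophage and monocyte markers 2 were called higher in the input against either control group by the count limit. One of them, Lyz2, which microglia also express, made up nearly all of their sum, with 263 FPKM on average after KA, 13.6 in the AAV control and 14 after PBS. How much of the C1q in the IP came from microglia or macrophages was not tested.

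Relative to the summed microglial markers, C1q was higher in the KA input. Ctss and Tyrobp made up a large part of that sum. Their mean input FPKM after KA, in the AAV control and after PBS was 649, 61.1 and 53.4 for Ctss. For Tyrobp it was 323, 32.4 and 41.5. The ratio of C1q to single markers was not tested. The 3 chains summed to 1.37 ± 0.263 times the summed microglial markers (SD, n = 3) after KA, 0.916 ± 0.0582 times in the AAV control and 0.886 ± 0.0262 times after PBS. The KA libraries did not overlap either control group, but the exact two-sided permutation p of each comparison was 0.1, the smallest that 3 against 3 allows. In the IP the same proportions were 0.450, 0.373 and 0.332 and the groups overlapped (exact permutation p = 0.3 and 0.2 for KA against the AAV control and PBS).

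**Figure D2:**
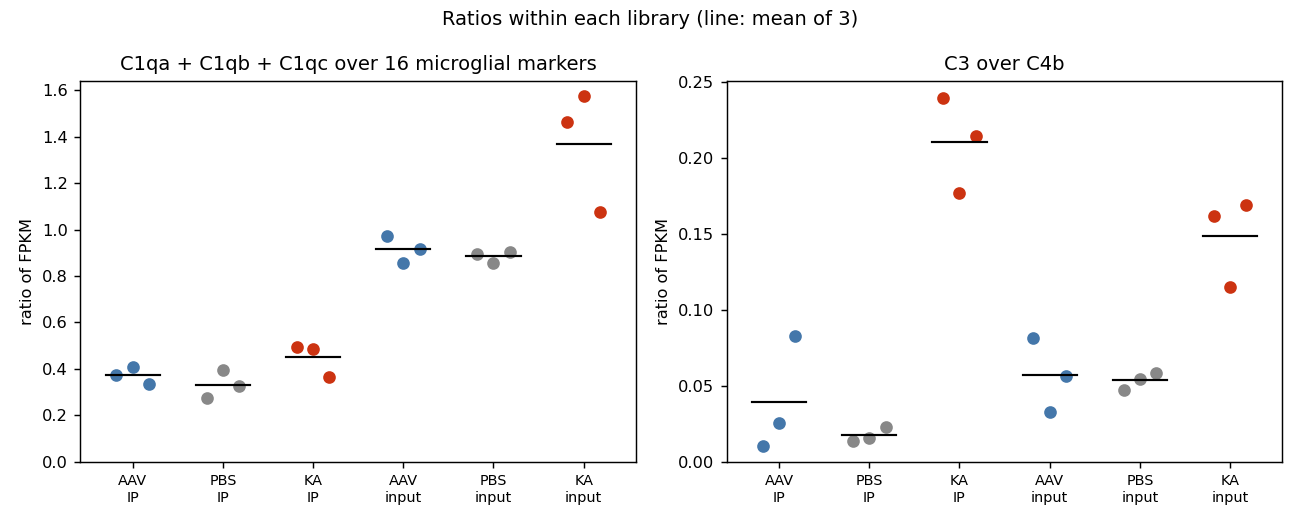
Proportions in each library by group: the summed FPKM of the 3 C1q chains over that of 16 microglial markers, and C3 FPKM over C4b FPKM, in IP and input. The KA input libraries lie above both control groups in each proportion (C1q means 1.37, 0.916 and 0.886 for KA, AAV control and PBS), while the C1q proportions of the IP overlap.

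The C1q chains had far lower levels in the IP than in the input in each group. FPKM is scaled within each library, so the ratio compares relative levels and not amounts of RNA recovered. The ratio of IP FPKM to input FPKM within a homogenate was 0.0182 ± 0.00419 for C1qa, 0.0135 ± 0.00444 for C1qb and 0.0199 ± 0.000841 for C1qc (SD, n = 3) after KA. In the AAV control it was 0.0640, 0.0601 and 0.0967, and in the PBS group 0.0745, 0.0679 and 0.0928. Each chain was called lower in the IP than in the input, by log2 values of -5.51, -5.97 and -5.43 after KA, -3.80, -4.19 and -3.35 in the AAV control and -3.63, -3.79 and -3.31 after PBS, with adjusted p from 2.35e-07 to 0.00218. Genes called lower were 4.51%, 13.1% and 12.3% of those tested in the 3 groups. The ratios of the 16 microglial markers, averaged over the homogenates of a group, ran from 0.0298 to 0.194 after KA, 0.0778 to 0.497 in the AAV control and 0.0817 to 0.594 after PBS. After KA the 3 chains thus had lower ratios than each of the 16 markers, and in each group they were below the median marker (0.0925, 0.160 and 0.253).

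C4b and C3 had the opposite distribution. C4b, the mouse C4 protein of the classical pathway, was the most abundant of the 8 genes in the IP by FPKM, at 79.8, 60.8 and 43.3 after KA, 21.7, 18.5 and 27.4 in the AAV control and 16.1, 16.3 and 16.1 after PBS. Input levels were 17.6, 15.3 and 11.5 FPKM after KA, 1.49, 1.23 and 2.46 in the AAV control and 1.22, 1.65 and 1.31 after PBS. The KA libraries lay above both control groups in each fraction without overlap. C4b rose by log2 1.46 (SE 0.27, adjusted p = 0.00916) in the IP against the AAV control and 1.90 (SE 0.23, adjusted p = 0.00024) against PBS. In the input it rose by 3.05 (SE 0.30, adjusted p = 0.00159) and 3.38 (SE 0.16, adjusted p = 2.09e-07). C4a, the near copy, had 0 to 15 counts in each of the 18 libraries.

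C3, the central component, went from near absence to a level close to that of the C1q chains in the IP. C3 was at 19.1, 10.8 and 9.31 FPKM after KA (1094, 576 and 525 counts), at 0.231, 0.468 and 2.28 in the AAV control (11, 23 and 150 counts) and at 0.218, 0.255 and 0.370 after PBS (18, 15 and 20 counts). Its input levels were 2.84, 1.76 and 1.95 FPKM after KA, 0.122, 0.0407 and 0.139 in the AAV control and 0.0581, 0.0903 and 0.0765 after PBS, where the control values stand for 2 to 9 counts. No control library reached the KA range, and AAV control #3 was the highest control IP library. By the count limit the IP rise was log2 3.79 (SE 0.68, adjusted p = 0.00584) against the AAV control, 5.39 (adjusted p = 5.82e-06) without AAV control #3, and 5.77 (SE 0.31, adjusted p = 1.85e-10) against PBS. The input rise was 4.35 (SE 0.40, adjusted p = 0.000266) and 4.78 (SE 0.33, adjusted p = 8.64e-08).

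Relative to C4b, C3 was higher after KA: C3 FPKM over C4b FPKM in the IP was 0.210 ± 0.0315 (SD, n = 3) after KA, 0.0397 ± 0.0383 in the AAV control and 0.0174 in the PBS group on average. In the input it was 0.149, 0.0570 and 0.0535. The KA libraries did not overlap the others in either fraction (exact two-sided permutation p = 0.1, the smallest possible).

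Both genes were more abundant in the IP than in the input. C4b had an IP to input FPKM ratio of 4.10 ± 0.399 after KA, 13.6 ± 2.10 in the AAV control and 11.8 ± 1.68 after PBS (SD, n = 3), and the log2 differences were 2.26 (adjusted p = 0.000146), 3.84 (adjusted p = 0.000224) and 3.68 (adjusted p = 6.65e-07). C3 had ratios of 5.88 ± 0.993, 9.91 ± 7.36 and 3.81 ± 1.0, which were 4.33, 1.79 and 1.19 with 1 FPKM added to each level because its control input held 2 to 9 counts. On the test scale its log2 differences were 2.78 (adjusted p = 0.000218), 3.46 (adjusted p = 0.0215) and 1.84 (adjusted p = 0.0115). Of all genes tested, 8.11%, 13.3% and 14.8% were called higher in the IP in these groups by the FPKM limit, and 10.6% and 14.7% in the AAV control and PBS groups by the count limit used for C3 there. The call of C3 was lost in the AAV control with limma-voom (log2 2.92, adjusted p = 0.0972), where the value was 2.33 without AAV control #3, and in the PBS group without PBS #2 or PBS #3 (1.91 and 1.72).

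The astrocyte markers gave a scale for these ratios. Their summed IP to input ratio was 3.22 ± 0.399 after KA, 11 in the AAV control and 9.87 after PBS, and single markers ran from 1.90 to 5.37, 5.08 to 14.4 and 4.42 to 12.1. C4b lay within the range of the 12 markers in each group, while C3 lay above it after KA (5.88), within it in the AAV control and below it after PBS (3.81). Microglial markers had a summed ratio of 0.0497, 0.162 and 0.206, and within single homogenates C4b exceeded it 42.9- to 101-fold and C3 11- to 128-fold.

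**Figure D3:**
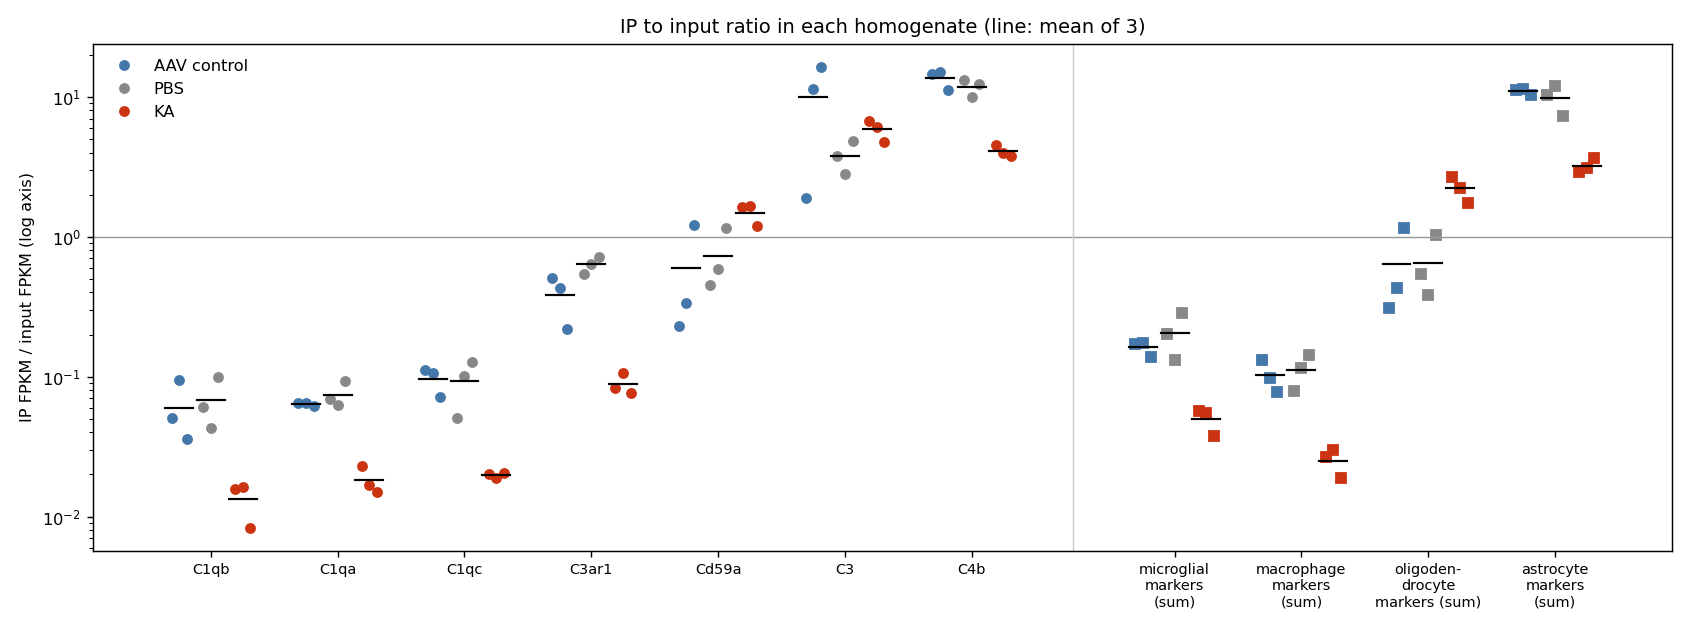
IP to input FPKM ratio (log axis) of 7 of the complement genes and of summed marker genes in each homogenate, with a line at the mean of 3; C5ar1 is left out because its IP counts were 0 to 4. The C1q chains sit below the microglial marker sum in each group and C4b near the astrocyte marker sum.

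The receptors were low in each library, and both rose in the input. C3ar1, the receptor of the C3a fragment, was at 3.77, 2.71 and 3.33 FPKM in the KA input, 0.494, 0.341 and 0.665 in the AAV control and 0.347, 0.410 and 0.525 after PBS. In the IP it was at 0.313, 0.290 and 0.254 FPKM after KA, 0.251, 0.146 and 0.145 in the AAV control and 0.188, 0.264 and 0.376 after PBS, which stand for 6 to 17 counts a library. The groups were separate in the input and overlapped in the IP for PBS. Its input rise was log2 2.65 (SE 0.30, adjusted p = 0.000938) against the AAV control and 2.90 (SE 0.23, adjusted p = 3.13e-07) against PBS. The IP differences were 0.82 (SE 0.48, adjusted p = 0.295) and 0.30 (SE 0.50, adjusted p = 0.666), and neither passed the test at this depth.

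C5ar1, the receptor of C5a, had 51, 47 and 32 counts in the KA input libraries, 4, 10 and 19 in the AAV control and 2, 9 and 6 after PBS. It rose in the input by log2 2.0 (SE 0.42, adjusted p = 0.0238) and 2.95 (SE 0.41, adjusted p = 0.000131). The first call was lost without KA #1, KA #2, AAV control #1 or AAV control #2, with adjusted p up to 0.132, and the value was 2.51 without AAV control #3. In the IP its counts were 0, 4 and 1 after KA, 0, 1 and 0 in the AAV control and 1, 0 and 0 after PBS, too few for a difference between the groups to be detectable.

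The IP to input ratio of C3ar1 was 0.0889 ± 0.0161 (SD, n = 3) after KA, 0.384 in the AAV control and 0.635 after PBS. Divided within each homogenate by that of the summed microglial markers, it was 1.82, 2.32 and 3.36 on average. With 1 FPKM added to each level, the undivided ratio became 0.304 after KA, 0.793 in the AAV control and 0.894 after PBS. The IP was lower than the input by log2 -3.20 (SE 0.24, adjusted p = 9.55e-06) after KA. In the AAV control the difference was -1.35 (adjusted p = 0.0748, and -1.33 with adjusted p = 0.0233 with the homogenate as a block), and after PBS it was -0.66 (adjusted p = 0.242). C5ar1 was called lower in the IP in each group, on IP sums of 5, 1 and 1 counts over 3 libraries. By the count limit 6.67%, 9.85% and 10.5% of all genes were called lower in these groups.

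Cd59a, a mouse form of the inhibitor CD59, was the one gene that was called as changing more in the IP than in the input after KA. Its IP levels were 9.27, 7.74 and 5.54 FPKM after KA, 1.19, 1.67 and 2.67 in the AAV control and 1.07, 1.31 and 2.26 after PBS. Its input levels were 5.71, 4.69 and 4.60 FPKM after KA, 5.19, 4.97 and 2.19 in the AAV control and 2.36, 2.21 and 1.95 after PBS. The KA libraries were apart from both control groups in the IP. In the input they were apart from PBS but overlapped the AAV control, in which #3 was less than the other libraries and close to the PBS values. Markers of choroid plexus, a tissue that borders the hippocampus, split the input libraries in the same way. Their 4 genes summed to 4476, 3831 and 2485 FPKM after KA, 2979, 2114 and 15.7 in the AAV control and 18.5, 249 and 289 after PBS. By the count limit, with 6.85% of all genes called higher in KA than in PBS, 3 of these 4 were. Their part in the Cd59a levels of the input was not tested.

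Cd59a rose in the IP by log2 2.02 (SE 0.35, adjusted p = 0.00715) against the AAV control and 2.31 (SE 0.29, adjusted p = 0.00029) against PBS. In the input the difference was 0.32 (SE 0.29, adjusted p = 0.645) against the AAV control, 0.03 without AAV control #3 and 0.04 in run 1 alone, and it rose by 1.18 (SE 0.21, adjusted p = 0.00222) against PBS. The IP to input ratio was 1.49 ± 0.250 (SD, n = 3) after KA, 0.595 ± 0.542 in the AAV control and 0.734 ± 0.373 after PBS. The log2 difference of 0.79 (adjusted p = 0.0110) after KA was under the size needed for a call, and those of -0.93 (adjusted p = 0.131) and -0.41 (adjusted p = 0.257) did not pass the test. Without AAV control #3 the second became -1.66 (adjusted p = 2.76e-05), a call of lower in the IP.

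The summed oligodendrocyte and neuronal markers were also higher after KA in the IP. The 9 oligodendrocyte genes summed to 2746, 1900 and 1407 FPKM in the KA IP libraries #1, #2 and #3. Their sums were 271, 358 and 1135 in the AAV control and 294 to 612 after PBS. By the count limit 5 of these 9 were called higher after KA against the AAV control IP and 9 against the PBS IP. The share of all genes called higher was 6.45% and 9.24%. In the input the sums were 800 to 1031 after KA, 827 to 976 in the AAV control and 594 to 762 after PBS. Their summed IP to input ratio was 2.22 after KA, 0.636 in the AAV control and 0.651 after PBS. The 8 neuronal markers summed to 252, 277 and 338 FPKM in KA IP #1, #2 and #3, the reverse of the order of Cd59a. Their sums were 119 to 149 in the AAV control IP and 127 to 213 in the PBS IP. Of these 8, 5 were called higher against the AAV control and 3 against PBS. Their summed ratio was 0.359 after KA, 0.126 in the AAV control and 0.160 after PBS. By either limit 6.39% to 9.24% of all genes were called higher in these 2 IP comparisons. The part of oligodendrocytes and neurons in the Cd59a result was not tested.

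**Figure D4:**
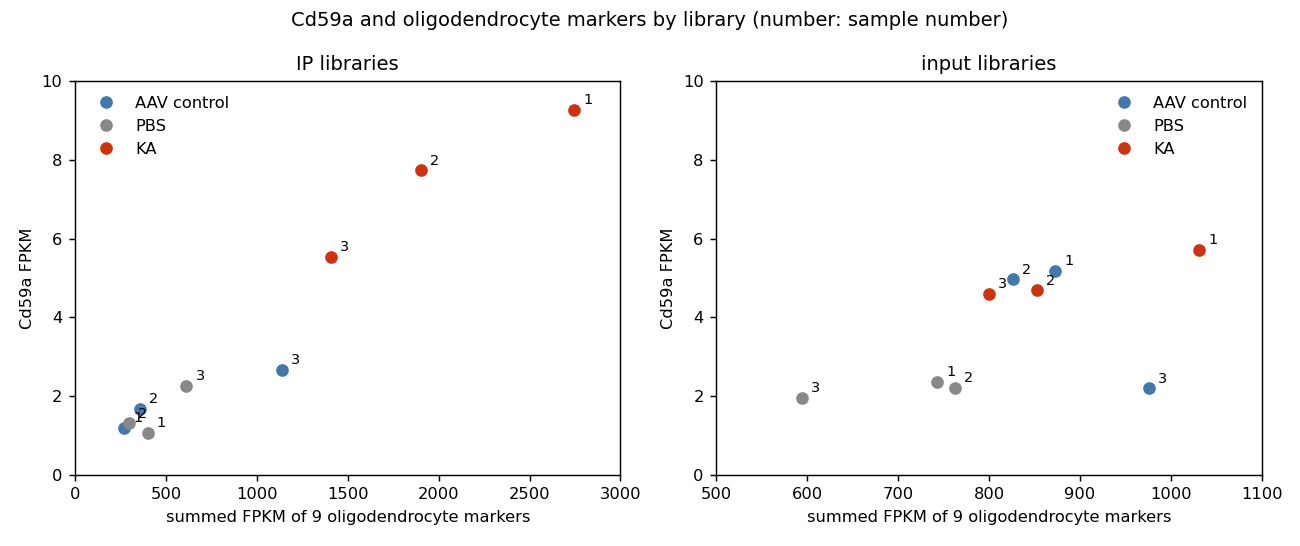
Cd59a FPKM against the summed FPKM of 9 oligodendrocyte markers in each IP and input library, with the sample number beside each point; the horizontal axis of the input panel starts at 500. In the IP the 3 KA libraries are highest on both axes, with KA #1 at 2746 and 9.27, and in the input AAV control #3 is low on Cd59a at 2.19.

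The comparison with the AAV control was repeated without AAV control #3 and within run 1, since run 2 holds 1 sample of each group. Without AAV control #3 the IP changes were 2.31 for C1qa, 2.05 for C1qb, 1.62 for C1qc, 1.70 for C4b and 2.48 for Cd59a. In the input they were 3.49 for C4b, 4.82 for C3 and 3.05 for C3ar1. Run 1 alone gave 2.61, 2.36, 1.65, 1.87 and 2.63 for the same 5 genes in the IP, with C3 at 5.53. In its input libraries C4b changed by 3.60, C3 by 4.84, C3ar1 by 2.97 and C5ar1 by 2.65. Each of these values was larger than the one from all libraries, while C3ar1 in the IP was smaller (0.71 and 0.73 against 0.82), as was Cd59a in the input. With the run as a covariate the IP values were 1.99, 1.71, 1.27, 1.48 and 2.05 for C1qa, C1qb, C1qc, C4b and Cd59a.

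The difference between the 2 fractions was tested directly, as the log2 change after KA in the IP minus that in the input. The fit took the IP and input of a homogenate as separate libraries, without pairing them. With the PBS group as control it was -1.94 (SE 0.40, adjusted p = 0.00377) for C1qa, -2.24 (SE 0.39, adjusted p = 0.0015) for C1qb and -2.19 (SE 0.35, adjusted p = 0.00101) for C1qc. For C4b it was -1.47 (SE 0.28, adjusted p = 0.0023) and for C3ar1 -2.58 (SE 0.45, adjusted p = 0.000402), so that these 5 genes rose less in the IP. Cd59a rose more in the IP, by 1.15 (SE 0.34, adjusted p = 0.0258), a call that was lost without KA #1, KA #2, PBS #1 (value 0.81) or PBS #2. C3 did not pass this test, at 1.0 (SE 0.60, adjusted p = 0.289). In all, 5 of 5 genes were called by the FPKM limit and 6 of 8 by the count limit, against 14.1% and 9.19% of all genes. Marker sums shifted between the fractions too. The IP to input ratio after KA, in the AAV control and after PBS was 3.22, 11 and 9.87 for astrocyte markers and 0.0497, 0.162 and 0.206 for microglial markers. For oligodendrocyte markers (2.22, 0.636 and 0.651) and neuronal markers (0.359, 0.126 and 0.160) it was higher after KA.

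With the AAV control group the same differences were -1.70 (SE 0.50, adjusted p = 0.0429) for C1qa, -1.78 (SE 0.64, adjusted p = 0.0920) for C1qb, -2.07 (SE 0.56, adjusted p = 0.0314) for C1qc, -1.57 (SE 0.41, adjusted p = 0.0264) for C4b and 1.73 (SE 0.49, adjusted p = 0.0354) for Cd59a. By the count limit C3ar1 gave -1.87 (SE 0.51, adjusted p = 0.0471) and C3 -0.61 (SE 0.95, adjusted p = 0.819). In this comparison 4 of 5 genes were called by the FPKM limit and 4 of 8 by the count limit, against 9.6% and 4.44% of all genes. With the homogenate as a block, which pairs IP and input, C1qb was called as well (-1.90, SE 0.33, adjusted p = 0.00112). C1qa lost its call with limma-voom (adjusted p = 0.0546) and the count limit (adjusted p = 0.0716), and C3ar1 with RLE normalization (adjusted p = 0.0502) and limma-voom (adjusted p = 0.0848). The calls depended on single homogenates, whose IP and input were left out together. Without any one of KA #1, KA #2, KA #3, AAV control #1 and AAV control #2 none of the 5 was called. Without AAV control #3 5 of 5 were, with C3 at 0.57. Over these 6 fits the values ran from -1.91 to -1.60 for C1qa, -2.34 to -1.96 for C1qc, -1.73 to -1.51 for C4b and 1.30 to 2.51 for Cd59a.

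**Figure D5:**
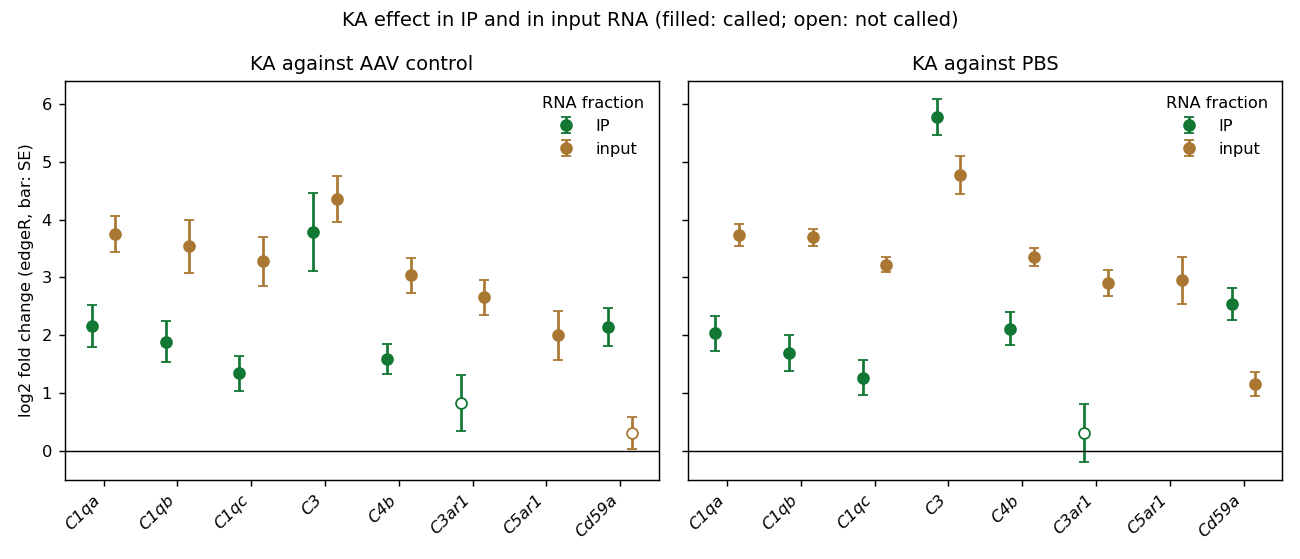
Log2 fold change after KA in the IP and in the input for each complement gene, against the AAV control and against PBS, fitted with the count limit, with bars of 1 SE, filled points for calls and C5ar1 shown in the input only. C1qa, C1qb, C1qc, C4b and C3ar1 changed more in the input and Cd59a more in the IP (2.14 in the IP with the AAV control, where its input point is open), while the fractions lay closer for C3.

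With all libraries no call was made between the control groups for these genes by the FPKM or the count limit. With no filter edgeR called C3 in the IP (log2 -1.97, SE 0.43, adjusted p = 0.00214). Between PBS and the AAV control the edgeR test called 0 of 5 genes in the IP and 0 of 5 in the input by the FPKM limit, and 0 of 7 and 0 of 8 by the count limit, as did DESeq2 and limma-voom. Of all genes tested 0% were called in 3 of these fits and 0.0175% in the IP by the count limit. At an unadjusted p under 0.05 the count limit left 1 gene in each fraction. In the IP this was C3 (log2 -2.0, SE 0.65, adjusted p = 0.423), which was -0.41 without AAV control #3. In the input it was Cd59a (log2 -0.85, SE 0.32, adjusted p = 0.568 by the FPKM limit), which without AAV control #3 was -1.14 with an adjusted p of 0.00128. The C1q chains differed by 0.19 to 0.31 in the IP (SE 0.31 to 0.42) and -0.13 to 0.09 in the input (SE 0.20 to 0.41), against 3.24 to 3.77 after KA in the input. Without AAV control #3 the input differences were 0.30 for C1qa (adjusted p = 0.0287), 0.61 for C1qb (adjusted p = 0.00156) and 0.79 for C1qc (adjusted p = 4.68e-05), which pass the test of p but are under the size needed for a call.

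Among 52 further complement genes, the C1 proteases and their inhibitor were called higher in the input by the count limit. In the input 36 were tested by the count limit against the AAV control and 7 were called, each higher; 35 were tested against PBS and 9 were called, each higher. Of all genes tested 3.58% and 6.85% were called higher there. By the FPKM limit edgeR called 0 of 9 and 0 of 10 in the input, with 3 and 6 at an unadjusted p under 0.05. In the IP, by the count limit, 4 of 34 were called against the AAV control (2 higher, 2 lower), near the share of all genes (2123 of 21201), and 12 of 38 against PBS (7 higher, 5 lower), beside 4983 of 22833. The median log2 change of the list was 0.42 and 0.23 in the input, against -0.03 and 0.01 over all genes tested, and -0.24 and -0.30 in the IP, against -0.05 and -0.15.

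Serping1, the inhibitor of the C1 proteases, was at 30.2, 20.7 and 20.2 FPKM in the KA IP, at 1.11, 0.990 and 12.8 in the AAV control and at 1.21, 1.47 and 2.01 after PBS. C1ra, the protease of the C1 complex that C1q activates, was at 5.24, 4.09 and 3.86 FPKM, 0.253, 0.105 and 2.12, and 0.147, 0.117 and 0.160 in the same order. AAV control #3 was high for both, as it was for C3. By the count limit Serping1 rose by log2 4.17 (adjusted p = 7.52e-10) and C1ra by 5.14 (adjusted p = 2.35e-09) in the IP against PBS, while against the AAV control the values were 2.34 (adjusted p = 0.0836) and 2.46 (adjusted p = 0.0560). In the input both rose, Serping1 by 2.33 and 2.34 and C1ra by 2.56 and 3.30 against the AAV control and PBS.

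Susd4, a membrane inhibitor of complement, rose in the IP, with 29.3, 34.0 and 27.7 FPKM after KA, 5.90, 6.21 and 5.85 in the AAV control and 9.45, 5.04 and 8.0 after PBS. Its log2 changes were 2.5 (adjusted p = 5.83e-05) and 2.25 (adjusted p = 1.45e-06) in the IP and 0.52 and 0.35 in the input, under the size needed for a call. The protease-like C1rl also rose in the IP, by 2.35 and 2.32. Called lower in the IP were the regulator Cd46 in both comparisons (-1.20 and -1.96) and vitronectin (Vtn, -1.33) against the AAV control.

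The leukocyte integrin chains of complement receptor 3 rose in the input. Itgam changed there by log2 2.48 and 2.72 and Itgb2 by 2.53 and 2.76 against the AAV control and PBS. In the IP Itgam differed by 1.0 and 0.43, neither of which passed the test, while Itgb2 rose by 2.71 against PBS. C1s1, the second C1 protease, was called higher in the input on 0 to 2 counts in each control library, and so no fold is given. Cd59b, the near copy of Cd59a, had 42, 38 and 32 counts in the KA IP, 6, 13 and 49 in the AAV control and 13, 2 and 38 after PBS, with #3 high in both control groups.

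The likeness of patterns across libraries was described by Pearson's correlation of log2 CPM (library-scaled counts) with each of 13275 genes over the 18 libraries, which share homogenates, runs and the IP step. C1qa was most like C1qb (0.994), the macrophage lysozyme Lyz2 (0.988) and cathepsin S (Ctss, 0.988), and C1qb was also close to C1qc (0.990). C1qc came next to C1qb, Cd53 (0.989) and C1qa (0.986). C3 was most like Timp1 (0.983), an inhibitor of matrix proteases, Bcl3 and Tgm1 (0.976). C4b was nearest to Eif2ak2 (0.995), the interferon-induced kinase PKR, Tnfrsf1a (0.992) and Plin2 (0.985).

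C3ar1 was nearest to Bcl2a1b (0.966), Trem2 and Tnfaip8l2 (0.944), and C5ar1 to C1qb (0.940), Fcgr1 (0.936) and Cd53 (0.933). Among the 3 genes nearest to Cd59a were Arsg and Rasal2 (0.929). Over the 9 IP libraries alone, C3 and Cd59a were among each other's nearest 3 genes (0.987), and Galnt6 was the nearest to Cd59a (0.989). There no C1q chain was among the nearest 3 of another. Trim59 was the nearest to C1qa (0.986), with the microglial marker Olfml3 in place 3 (0.977), Pls1 to C1qb (0.985) and Ccdc86 to C1qc (0.968). In the 9 input libraries the nearest were Anxa5 to C1qa (0.995) and the microglial markers Ctss to C1qb (0.999) and Ly86 to C1qc (0.997).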

How the data were processed

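TRAP RNA-seq libraries were made from the IP and the input of 9 homogenates. The authors aligned reads to mm10 with STAR and deposited gene counts and FPKM for each library; featureCounts and edgeR are named in the submitters' processing notes without a role, and the annotation release, strand setting and handling of multi-mapped reads are not given in the sources used here. Replicates were samples numbered #1 to #3 per the labels, and p-values measure the spread between these pools.

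Deposited counts were tested with edgeR 4.0.16 (TMM, quasi-likelihood, Benjamini-Hochberg) in R 4.3.3 over all genes above 1 FPKM in each library compared, or with at least 10 summed counts. A call needed an adjusted p under 0.05 and a log2 change of at least 1. RLE normalization, DESeq2 1.42.0, limma-voom (limma 3.58.1), no filter, a replicate block, the run as a covariate, run 1 alone and leaving out each library were tried. Where IP and input were compared, the main fits did not pair them. There the block was the homogenate, and a homogenate was left out with both its libraries. Same-numbered libraries deviated together between IP and input (residual correlation 0.155 to 0.751) and between KA and AAV control (0.348 to 0.551), while with PBS the values ran from -0.294 to 0.355 and the numbers were not taken as pairs. No pair of libraries was a duplicate. Count-limit fits were also run on simulated counts in which 200 genes were changed by log2 2, and 85.5% to 100% of these were called. The changed genes were drawn from those above a minimum mean count, so genes as low as C3ar1 in the IP were not covered. The simulated libraries were independent and had the same set spread for each gene, not the spread measured here. The pairing of IP and input was not covered either.

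The 8 genes and the marker and complement lists were chosen with earlier results of these data known. Named were all 8, other complement genes called between groups (at most 8 a comparison by smallest p), near copies, and the 3 genes most like each. Some genes that this rule names are not reported here. The deposited FPKM, not counts, were used for levels and ratios, with FPKM plus 1 and TMM-scaled CPM as alternatives. Totals of 7991681 to 16032180 counts set the precision of low genes.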

Additional observations from a re-analysis of the deposited data

Results flagged for a closer look

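11 results were singled out because the change after KA differed between the IP and the input by a test of that difference. With the AAV control group as the baseline these were C1qa (-1.70 on the log2 scale, IP minus input), C1qc (-2.07), C4b (-1.57), C3ar1 (-1.87) and Cd59a (1.73). With the PBS group they were C1qa (-1.94), C1qb (-2.24), C1qc (-2.19), C4b (-1.47), C3ar1 (-2.58) and Cd59a (1.15). Cd59a was the one gene among these with a positive value, and both baselines use the same KA libraries. Summed astrocyte and microglial markers also had a lower IP to input ratio after KA than in either control group. Oligodendrocyte and neuronal sums had a higher one.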

How the results depend on the processing

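In the 4 comparisons of KA with a control group the genes tested kept their direction in each setting; C5ar1 was not tested in the IP. Counted over genes and settings, 825 values kept direction and call, 53 lost a call, 8 gained one and 17 changed sign. The number of the 8 genes called in the input rose from 4 to 7 (AAV control) and from 5 to 8 (PBS) with the count limit or no filter in place of the FPKM limit, because 3 genes failed that limit, and it returned to 4 and 5 under it. Between PBS and the AAV control in the IP, no filter gave 1 call (C3, -1.97). Leaving out 1 library gave 3 to 5 calls for KA against the AAV control in the IP and 0 to 1 for PBS against the AAV control in the input (Cd59a). Leaving out 1 homogenate gave 0 to 5 (FPKM limit) and 0 to 6 (count limit) for the difference between fractions with the AAV control.

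Signs changed for PBS against the AAV control. Over the fits without 1 library the IP values ran from -0.020 to 0.57 for C1qb, -0.11 to 0.57 for C1qc and -0.56 to 0.16 for Cd59a. The input values ran from -0.14 to 0.30 for C1qa, -0.45 to 0.61 for C1qb, -0.19 to 0.79 for C1qc, -0.51 to 0.12 for C4b, -0.78 to 0.048 for C3 and -0.45 to 0.16 for C3ar1. The highest of these input values were those without AAV control #3. C1qb in the input was 0.085 with limma-voom and 0.089 with the replicate block. The C3 difference between fractions with the AAV control ran from -1.12 to 0.57. The cause of these changes was not tested. The replicate block changed no other call than those of C1qb and C3ar1 given above. Over all genes, KA against the AAV control IP gave 1130 calls by the FPKM limit, 2123 by the count limit and 2823 with no filter. Of the IP to input ratios, 20 values moved by over 1 SD, each with 1 FPKM added or with TMM-scaled CPM, among them C4b with 1 FPKM added (8.69 in the AAV control and 7.21 after PBS). Depth limits C5ar1 and C3ar1 in the IP and in the control input, and C3 in the control IP and control input. There some or all libraries held under 20 counts.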
